A study of Mus musculus with 9 samples.

Results

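Interferon-induced effector genes and guanylate-binding proteins (GBPs) were followed across the iris libraries of a corneal alkali injury (CAI) study. The members were 49 genes chosen by name, and their rows were found by gene symbol in the count files. By textbook background on the interferon that induces each gene most strongly, 35 were placed in a type I-leaning class and 14 in a gamma-leaning class. Most of them respond in some degree to both kinds of interferon, so the classes overlap in biology. Of the 49 genes, 47 had a row among the 18349 genes listed, and all 47 passed the filter on low counts that left 15010 genes tested. Mx1 and Mx2, which encode antiviral GTPases, were not analysed here. RefSeq annotates both of them in the reference genome GRCm38.p6 as transcribed pseudogenes.

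Interferons are cytokines of antiviral and antimicrobial defense. Type I interferons signal through the receptor chains Ifnar1 and Ifnar2 to a complex that holds Stat2 and Irf9 and binds the interferon-stimulated response element (ISRE) of target promoters, whereas interferon gamma signals through Ifngr1 and Ifngr2 and acts at the gamma-activated site (GAS). The products include enzymes that degrade or modify nucleic acids, the ubiquitin-like protein Isg15, cytosolic sensors of foreign RNA and DNA, and families of large GTPases, the GBPs and the immunity-related GTPases, which attack the vacuoles of intracellular microbes. Resident and recruited macrophages express many of these genes.

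RNA of whole iris tissue was sequenced in 9 libraries, 3 in each of 3 groups, and each library pooled the irises of 3 mice on a C57BL/6J background. In both injured groups the cornea was exposed at 6 weeks of age to sodium hydroxide (1 M, 0.5 μL) for 60 seconds, and in the Sham VEGFR3fl/fl group to PBS. The injured VEGFR3iLECko mice carried floxed VEGFR3 (Flt4, the receptor of lymphatic growth factors) and a tamoxifen-inducible Cre recombinase under Prox1, a lymphatic endothelial gene, and the VEGFR3fl/fl mice were littermates that the labels give as wild type. Tamoxifen at 80 mg/kg was given on days 13 to 17 after injury, as the labels state for all libraries alike, and irises were collected at 10 weeks of age. VEGFR3 was therefore targeted only where Prox1 drives Cre, whereas the RNA came from all cells of the iris. The study asked how lymphatic vessels that grow into the injured iris bear on inflammation.

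Total counts ranged from 16617199 to 18306363 per library. Flt4 had 282, 237 and 265 counts in Sham, 277, 353 and 400 in injured VEGFR3fl/fl and 478, 370 and 476 in labelled VEGFR3iLECko libraries. It was thus not lower in the libraries labelled VEGFR3iLECko, and counts over the whole gene in whole iris do not separate the floxed part or the lymphatic endothelium, so that this measurement did not check the label. Pigment cell and smooth muscle markers of the iris were detected in all 9 libraries. Single injured VEGFR3fl/fl libraries stood apart in some markers of other tissues. Replicate 1 had 1921 counts of the corneal Aldh3a1, against 29 to 178 in the other libraries, and 1522 counts of the lymphatic Ccl21a, against 0 to 79. Replicate 2 had 160 counts of the lens crystallin Cryba1, against 0 to 21. Other markers of lens and cornea were not confined to single libraries. The lens crystallin Cryaa had 0 to 2 counts in Sham and 48 to 607 in the injured libraries of both genotypes. The corneal Krt5 had 7 to 328 counts in Sham and 3 to 15 in the injured libraries of both genotypes. The Y-linked genes Ddx3y, Eif2s3y and Kdm5d were at 0 to 2 counts in the 3 libraries labelled VEGFR3iLECko and in replicate 3 of the injured VEGFR3fl/fl group, and at 140 to 1224 counts in the other 5 libraries. Y-linked expression, and with it the sex of the pools, thus moved with the genotype label. Among the 47 genes, replicate 2 was the highest of the Sham libraries for 38, and replicate 3 the highest of the injured VEGFR3fl/fl libraries for 33.

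The 2 regulatory elements were looked for in promoter windows of RefSeq on GRCm38.p6, each from 250 bases before to 50 bases after a transcription start. The ISRE core was searched as GAAANNGAA on both strands, and the GAS core as TTCNNNGAA, which reads the same on both strands. A window was given for 34 of the 49 genes, and Mx1, Mx2, Oas2, Dhx58, Usp18, Zbp1, Parp9, Parp14, Rtp4, Ifi204, Gbp4, Gbp6, Gbp8, Gbp9 and Iigp1 had none. An ISRE core was present for 21 of the 34 genes (61.8%), against 8.72% of the 11848 tested genes with a window. A GAS core was present for 11 of the 34 genes (32.4%), against 8.26% of the tested genes. The gamma-leaning class held the ISRE core in 8 of 9 genes and the GAS core in 5 of 9, and the type I-leaning class held them in 13 of 25 and 6 of 25 genes.

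The stretches printed here, 5′ to 3′ along each gene, carry the cores of genes whose values are given later. The bases of a core are in capitals, and all stretches lie before the transcription start of their window. The window of Ifit3 is that of a later start, so its stretch lies inside the annotated span of the gene, 34583119 to 34588982. Overlapping ISRE cores stand in Isg15, Ifit1 and Bst2, 3 separate ones in Ifit3 and a single one in the other genes, and Bst2, Gbp7, Igtp, Irgm2 and Tgtp1 hold 1 or 2 GAS cores as well.
Isg15, chr4:156200868-156200904, minus strand: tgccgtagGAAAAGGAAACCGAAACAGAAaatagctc
Ifit1, chr19:34640772-34640821, plus strand: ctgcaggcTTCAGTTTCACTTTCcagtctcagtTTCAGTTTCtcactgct
Ifit3, chr19:34583366-34583443, plus strand: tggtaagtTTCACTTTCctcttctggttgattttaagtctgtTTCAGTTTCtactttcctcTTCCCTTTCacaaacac
Bst2, chr8:71537580-71537616, minus strand: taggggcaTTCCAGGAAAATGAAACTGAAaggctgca
Gbp2, chr3:142620597-142620621, plus strand: cttttagtTTCACTTTCactgtctt
Gbp7, chr3:142530222-142530300, plus strand: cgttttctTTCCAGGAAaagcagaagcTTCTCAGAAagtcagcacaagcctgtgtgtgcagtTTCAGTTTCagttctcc
Igtp, chr11:58199503-58199538, plus strand: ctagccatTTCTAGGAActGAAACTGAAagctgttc
Irgm2, chr11:58214894-58214929, plus strand: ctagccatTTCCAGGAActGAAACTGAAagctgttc
Tgtp1, chr11:48992307-48992342, minus strand: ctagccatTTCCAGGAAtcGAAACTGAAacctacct
In Igtp, Irgm2 and Tgtp1, which encode immunity-related GTPases of chromosome 11, a GAS core and an ISRE core stand side by side, separated by 2 bases. In Bst2 the GAS core runs into the ISRE cores. A match is a description of letters and not a bound site.

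**Figure D1:**
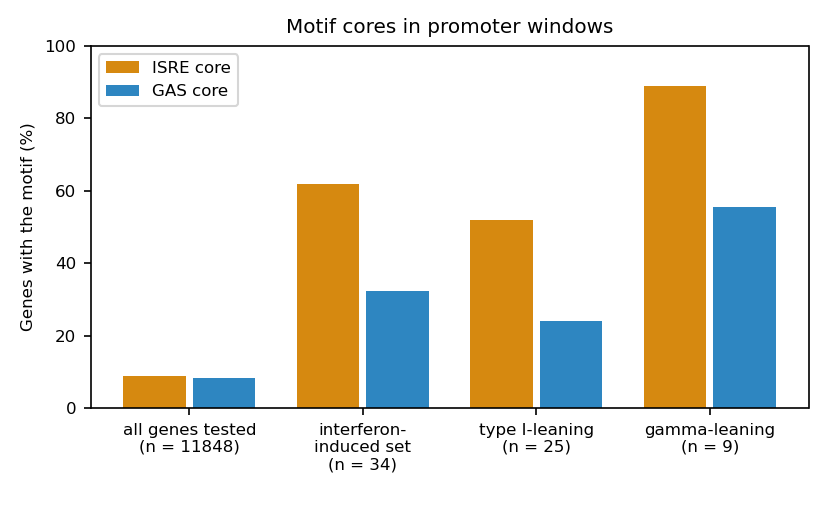
Percentage of genes with an ISRE core (GAAANNGAA on either strand) or a GAS core (TTCNNNGAA) in a promoter window of 300 bases, for all tested genes with a window, for the interferon-induced set and for its classes, with the number of genes under each. The set holds the ISRE core in 61.8% and the GAS core in 32.4% of genes, against 8.72% and 8.26% of tested genes.

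The cores were found both among genes that responded to injury and among those that were not called. An ISRE core was present for 12 of the 20 genes with a window that were called higher in the injured VEGFR3fl/fl libraries and for 9 of the 14 that were not. A GAS core was present for 5 of the same 20 genes and for 6 of the 14. Both cores were present for 7 genes, of which Oas1a, Gbp5 and Tgtp1 were called higher and Bst2, Gbp7, Igtp and Irgm2 were not, and Slfn2, the gene with the largest rise, held neither core in its windows.

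Levels per transcript length, as approximate TPM (counts divided by the length of a gene's longest annotated transcript and scaled to sum to 1000000 in every library), covered a wide range in the Sham iris. Ifit3, which binds foreign RNA together with Ifit1, was highest at 391 ± 63.5 TPM (mean ± SD, n = 3 libraries), followed by Bst2, the tetherin that holds budding virus particles, at 295 ± 93.7 TPM. The intervals of mean ± SD of this pair overlapped. Ifi35 followed at 91.4 ± 11.1 TPM and Isg15 at 57.2 ± 16.5 TPM. Isg15 was not apart from Gbp2 at 50.8 ± 6.51 TPM and Ifit1 at 49.3 ± 9.49 TPM beyond their spread. At the other end, Oas3 was at 0.597 ± 0.255 TPM and Gbp8 at 0.284 ± 0.0410 TPM. The median over the 47 genes was 17.2 TPM, and over the 14752 tested genes with a length it was 20.3 TPM. The set was thus expressed in the uninjured iris, with 21 of the 47 genes above the median of all genes. After injury of VEGFR3fl/fl mice Slfn2, a gene tied to the quiescence of immune cells, was at 151 ± 31.4 TPM, up from 12.6 ± 1.79 TPM, and stood at rank 3 of the 47 genes, up from rank 30.

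In the injured VEGFR3fl/fl iris most interferon-induced genes were higher than in Sham iris, although none of the 3 Ifit genes, which are common markers of a type I response, was called higher. A gene was called where edgeR's quasi-likelihood test gave an adjusted p under 0.05 and the change was over 1.5-fold. Of the 47 genes, 30 were called higher (63.8%), where 22.1% of all tested genes were, and 2 were called lower, where 17.5% were. The median log2 fold change was 0.99, and over all tested genes it was 0.01. In 33 of the 47 genes every injured VEGFR3fl/fl library was above every Sham library, against 33.9% of tested genes. Macrophage markers moved the same way: all 12 of that list were called higher, and their summed level was 545 to 563 CPM (counts per 1000000 counts of the library, scaled by edgeR's TMM factors) in the Sham libraries and 12802 to 21255 CPM in the injured VEGFR3fl/fl libraries, with none at 0. Other lists moved as well: T cell markers were called higher in 9 of 9 genes (summed level 4.79 to 5.21 CPM in Sham and 41.3 to 60.2 CPM in injured VEGFR3fl/fl libraries), NK cell markers in 3 of 3 tested, neutrophil markers in 3 of 5 tested and blood endothelial markers in 5 of 6. Iris pigment cell markers were called lower in 6 of 6 genes (27420 to 29291 CPM in Sham and 3352 to 5778 CPM in injured VEGFR3fl/fl libraries), and iris muscle markers in 4 of 6. The part of these cells in the result was not tested, and in bulk tissue more cells of a type and more RNA per cell cannot be told apart.

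**Figure D2:**
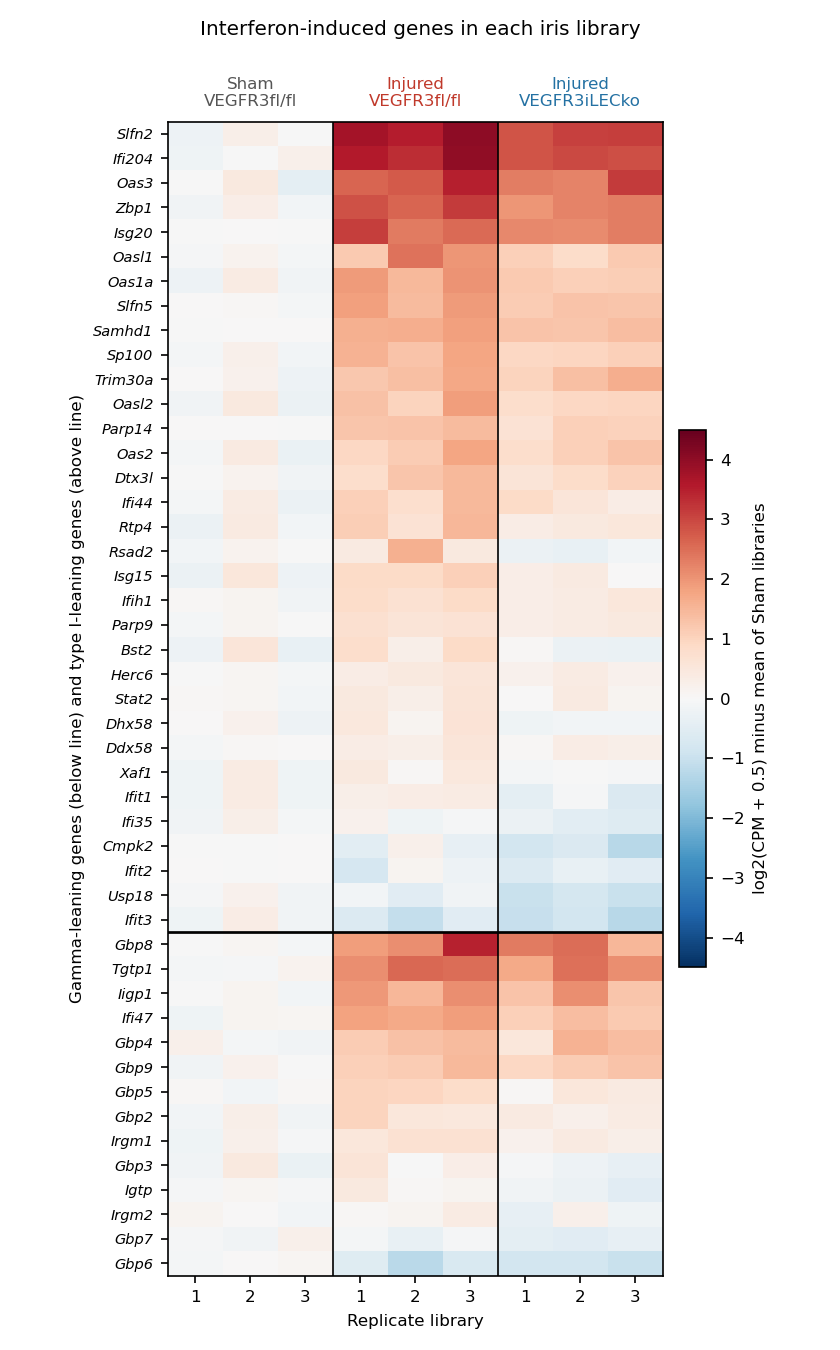
Level of each of the 47 genes (rows) in each of the 9 libraries (columns) as log2(CPM + 0.5) minus the mean of the Sham libraries, with type I-leaning genes above the horizontal line and gamma-leaning genes below it. The upper rows of each block are red in all 6 injured libraries. Most are paler in those labelled VEGFR3iLECko, but in several the injured groups overlap, such as Oas3, Trim30a, Gbp8, Tgtp1, Iigp1 and Gbp4. Ifit3 and Gbp6 are blue in all 6, and Usp18 and Gbp7 are below 0 in all 6 too.

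The sensors of nucleic acids included several of the largest rises. Zbp1, a sensor of Z-form nucleic acids that can start necroptosis, was at 2.16, 3.11 and 2.2 CPM in the Sham libraries, 20.9, 17.5 and 25.9 CPM in injured VEGFR3fl/fl and 11.2, 13.5 and 13.9 CPM in labelled VEGFR3iLECko libraries. The 3 groups did not overlap, and the rise of Zbp1 in injured VEGFR3fl/fl mice was 3.10 ± 0.21 on the log2 scale (± SE, adjusted p = 2.51e-06). Ifi204, a DNA sensor of the p200 family, was at 3.54, 4.07 and 4.96 CPM in Sham, 55.2, 45.5 and 73.7 CPM in injured VEGFR3fl/fl and 32.5, 35.6 and 34.2 CPM in labelled VEGFR3iLECko libraries. Its rise was 3.79 ± 0.20 on the log2 scale (adjusted p = 6.26e-07), or 13.9-fold. The RNA sensor Ifih1 (MDA5) was at 19.3, 20.4 and 16.7 CPM in Sham, 33.3, 30.1 and 34.4 CPM in injured VEGFR3fl/fl and 23.0, 24.7 and 26.8 CPM in labelled VEGFR3iLECko libraries, again without overlap, with a log2 rise of 0.79 ± 0.10 (adjusted p = 1.42e-04). The related Ddx58 (RIG-I) and Dhx58 (LGP2) changed by 0.39 ± 0.10 and 0.42 ± 0.15, below the minimum fold, at adjusted p of 0.00869 and 0.0337.

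Among antiviral effectors all 5 genes of the set from the oligoadenylate synthetase family rose. This family includes the enzymes that make the activator of RNase L. Oas3 had 0.942, 1.47 and 0.563 CPM in Sham, 8.37, 9.37 and 15.7 CPM in injured VEGFR3fl/fl and 6.60, 6.34 and 12.3 CPM in labelled VEGFR3iLECko libraries. Oas1a had 7.98, 12.3 and 8.33 CPM in Sham, 36.7, 26.6 and 39.5 CPM in injured VEGFR3fl/fl and 21.7, 20.2 and 20.6 CPM in labelled VEGFR3iLECko libraries. The injured groups lay above Sham in both genes, and for Oas1a the 2 injured groups were apart as well. Oas2 had 12.6, 17.9 and 10.9 CPM in Sham, 26.5, 30.1 and 47.3 CPM in injured VEGFR3fl/fl and 23.8, 28.8 and 33.3 CPM in labelled VEGFR3iLECko libraries, so that the injured groups overlapped. Oasl1, which restrains translation of Irf7, had 2.16, 2.60 and 2.14 CPM in Sham, 5.83, 14.9 and 10.5 CPM in injured VEGFR3fl/fl and 5.37, 4.47 and 5.87 CPM in labelled VEGFR3iLECko libraries. Oasl2 had 43.0, 65.1 and 39.8 CPM in Sham, 122, 95.9 and 178 CPM in injured VEGFR3fl/fl and 83.6, 92.7 and 93.7 CPM in labelled VEGFR3iLECko libraries. The log2 fold changes after injury of VEGFR3fl/fl mice were 3.48 ± 0.43, 1.85 ± 0.19, 1.33 ± 0.25, 2.17 ± 0.32 and 1.42 ± 0.24 in that order, with adjusted p from 3.86e-05 for Oas1a to 0.00160 for Oas2.

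Of the other effectors, Isg20, an RNA exonuclease, had 2.22, 2.26 and 2.2 CPM in Sham, 23.1, 13.3 and 15.4 CPM in injured VEGFR3fl/fl and 11.6, 11.4 and 12.8 CPM in labelled VEGFR3iLECko libraries, with a log2 rise of 2.95 ± 0.21 (adjusted p = 4.19e-06). Samhd1, which depletes deoxynucleotides, had 50.3, 52.4 and 51.6 CPM in Sham, 155, 162 and 187 CPM in injured VEGFR3fl/fl and 124, 122 and 135 CPM in labelled VEGFR3iLECko libraries, with a log2 rise of 1.71 ± 0.08 (adjusted p = 4.87e-07). The 3 groups were ordered without overlap in both genes. Rsad2 (viperin) had 9.69, 12.0 and 10.6 CPM in Sham, 14.3, 33.4 and 14.8 CPM in injured VEGFR3fl/fl and 8.82, 8.33 and 9.84 CPM in labelled VEGFR3iLECko libraries. Replicate 2 alone carried most of its log2 rise of 0.95 ± 0.30 (adjusted p = 0.0218), and without that library the change was 0.43, under the minimum fold. Bst2 had 67.3, 116 and 63.1 CPM in Sham, 136, 94.5 and 145 CPM in injured VEGFR3fl/fl and 81.0, 65.8 and 64.6 CPM in labelled VEGFR3iLECko libraries. The Sham and injured VEGFR3fl/fl groups overlapped through Sham replicate 2, and the log2 change of 0.61 ± 0.24 was not called (adjusted p = 0.0560), but without that library it was 0.94 and called.

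The Ifit genes, which encode RNA-binding proteins that block viral translation and lie together on chromosome 19, were not among the genes called higher. Ifit3 (chromosome 19, 34583119 to 34588982 on GRCm38.p6) had 209, 295 and 213 CPM in Sham, 155, 113 and 167 CPM in injured VEGFR3fl/fl and 115, 133 and 99.0 CPM in labelled VEGFR3iLECko libraries. Every injured library was below every Sham library, and its log2 fold change after injury of VEGFR3fl/fl mice was -0.72 ± 0.18 (adjusted p = 0.00793). Without Sham replicate 2 its change was -0.54, and without injured VEGFR3fl/fl replicate 2 it was -0.57, under the minimum fold in each case. Ifit1 had 39.7, 58.4 and 39.9 CPM in Sham, 54.6, 57.0 and 58.1 CPM in injured VEGFR3fl/fl and 33.5, 43.1 and 28.8 CPM in labelled VEGFR3iLECko libraries, and Ifit2 had 40.9, 39.8 and 40.7, 23.5, 43.8 and 34.2, and 25.9, 31.7 and 28.4 CPM in the same order of groups. Neither passed the test after injury of VEGFR3fl/fl mice, with log2 changes of 0.30 ± 0.18 and -0.26 ± 0.19 (adjusted p = 0.171 and 0.260). Ifit3b, a near copy of Ifit3 with its own row, had a log2 change of -0.95 ± 0.18 (adjusted p = 0.00152). How reads that match both copies were counted is not given in the sources used here, so that the split between them is uncertain, and the same holds for Oas1a beside Oas1g and for Tgtp1 beside Tgtp2. Cmpk2, the nucleotide kinase beside Rsad2 on chromosome 12, had 17.2, 16.9 and 17.6 CPM in Sham, 12.3, 20.3 and 13.4 CPM in injured VEGFR3fl/fl and 9.41, 10.7 and 6.91 CPM in labelled VEGFR3iLECko libraries, and its change after injury of VEGFR3fl/fl mice was -0.17 ± 0.21 (adjusted p = 0.500).

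**Figure D3:**
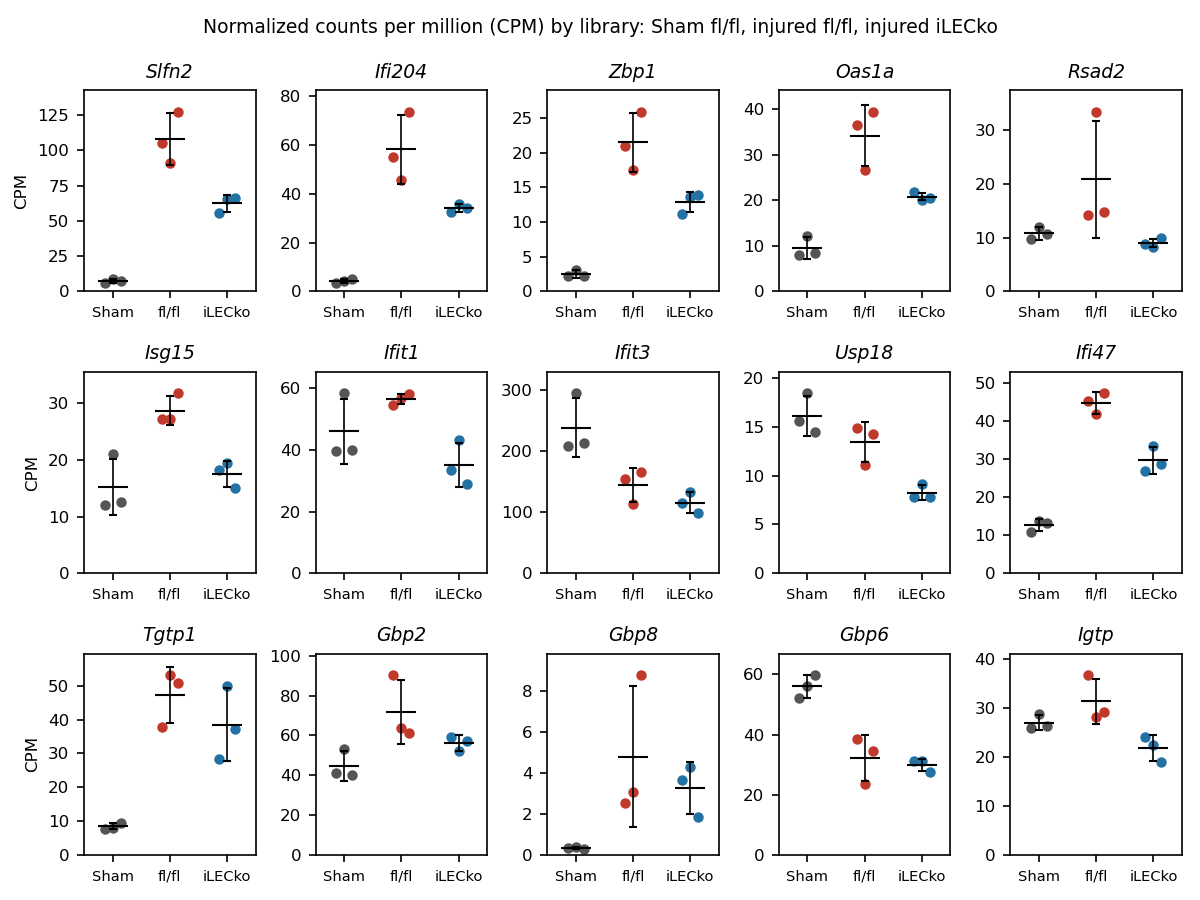
CPM of 15 of the genes in each library of the Sham VEGFR3fl/fl (grey), injured VEGFR3fl/fl (red) and labelled injured VEGFR3iLECko (blue) groups, on axes that start at 0, with the bar at the mean and whiskers of 1 SD (n = 3 libraries). Slfn2, Ifi204 and Zbp1 are ordered Sham, labelled VEGFR3iLECko, injured VEGFR3fl/fl without overlap, whereas Ifit3, Usp18 and Gbp6 are highest in Sham.

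In the Isg15 system, Isg15 itself, the ubiquitin-like modifier, had 12.1, 21.0 and 12.6 CPM in Sham, 27.2, 27.2 and 31.8 CPM in injured VEGFR3fl/fl and 18.2, 19.5 and 15.0 CPM in labelled VEGFR3iLECko libraries. It rose by 0.92 ± 0.21 on the log2 scale (adjusted p = 0.00407) without overlap between Sham and injured VEGFR3fl/fl libraries. Usp18, which removes Isg15 from proteins and restrains the type I receptor, had 15.6, 18.4 and 14.4 CPM in Sham, 14.9, 11.1 and 14.3 CPM in injured VEGFR3fl/fl and 7.77, 9.12 and 7.83 CPM in labelled VEGFR3iLECko libraries. Its change of -0.27 ± 0.15 after injury of VEGFR3fl/fl mice did not pass the test (adjusted p = 0.150). Herc6, the mouse ligase for Isg15, changed by 0.45 ± 0.10 at an adjusted p of 0.00409, below the minimum fold. Stat2, the type I-specific signal transducer, had 63.6, 64.7 and 56.6 CPM in Sham, 83.7, 73.8 and 92.7 CPM in injured VEGFR3fl/fl and 62.1, 81.0 and 67.2 CPM in labelled VEGFR3iLECko libraries, and its change of 0.44 ± 0.12 was likewise below the minimum fold (adjusted p = 0.0106).

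Of the 7 genes of signaling and chromatin, with Stat2 among them, 5 were called higher, where 22.1% of tested genes were. Sp100 of nuclear bodies (1.56 ± 0.14), the ADP-ribosyltransferases Parp14 (1.33 ± 0.11) and Parp9 (0.67 ± 0.08), the Parp9 partner Dtx3l (1.31 ± 0.23) and Trim30a (1.48 ± 0.19) rose on the log2 scale, with adjusted p from 1.19e-05 to 9.61e-04. Ifi35 changed by -0.02 ± 0.14 (adjusted p = 0.931). Slfn2 was at 6.15, 8.81 and 7.15 CPM in Sham, 105, 90.7 and 127 CPM in injured VEGFR3fl/fl and 55.4, 65.5 and 66.3 CPM in labelled VEGFR3iLECko libraries. It had the largest log2 rise of the 47 genes, 3.87 ± 0.17 (adjusted p = 2.65e-07), or 14.6-fold. The related Slfn5 rose by 1.76 ± 0.13 (adjusted p = 3.81e-06), Ifi44 by 1.14 ± 0.24 (0.00244) and the receptor-transporting Rtp4 by 1.11 ± 0.23 (0.00234), whereas the apoptosis-related Xaf1 changed by 0.32 ± 0.17 (adjusted p = 0.136).

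The GBPs lie in 2 clusters, and the members of each differed in their calls. Of the genes on chromosome 3, Gbp2 (chromosome 3, 142620663 to 142638008) had 41.0, 53.4 and 40.0 CPM in Sham, 90.2, 63.6 and 61.5 CPM in injured VEGFR3fl/fl and 59.5, 52.0 and 57.3 CPM in labelled VEGFR3iLECko libraries. Gbp5, which promotes inflammasome assembly, had 6.65, 5.87 and 6.59 CPM in Sham, 13.4, 12.9 and 11.7 CPM in injured VEGFR3fl/fl and 6.66, 9.35 and 8.58 CPM in labelled VEGFR3iLECko libraries. Both rose after injury of VEGFR3fl/fl mice, by 0.68 ± 0.16 (adjusted p = 0.00567) and 0.99 ± 0.15 (adjusted p = 4.15e-04), and the call of Gbp2 was lost without injured VEGFR3fl/fl replicate 1, where its change was 0.48. Their neighbor Gbp3 had 30.4, 45.6 and 27.4 CPM in Sham, 50.4, 33.0 and 41.8 CPM in injured VEGFR3fl/fl and 32.7, 29.0 and 26.2 CPM in labelled VEGFR3iLECko libraries. Gbp7 had 38.6, 35.6 and 46.3 CPM in Sham, 37.7, 31.8 and 38.8 CPM in injured VEGFR3fl/fl and 29.4, 27.6 and 30.7 CPM in labelled VEGFR3iLECko libraries. Sham and injured VEGFR3fl/fl libraries overlapped in both, and the log2 changes were 0.27 ± 0.21 and -0.15 ± 0.11 (adjusted p = 0.280 and 0.275).

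Of the genes on chromosome 5, Gbp8 (chromosome 5, 105012513 to 105053609) had 0.332, 0.395 and 0.282 CPM in Sham, or 6, 7 and 5 counts, 2.55, 3.10 and 8.79 CPM in injured VEGFR3fl/fl and 3.68, 4.30 and 1.84 CPM in labelled VEGFR3iLECko libraries. It rose by 3.81 ± 0.59 (adjusted p = 4.72e-04) from a level near the detection limit, and injured VEGFR3fl/fl replicate 3 stood above the rest. Gbp4 had 5.43, 4.29 and 4.05 CPM in Sham, 10.6, 12.2 and 13.0 CPM in injured VEGFR3fl/fl and 6.72, 14.6 and 12.7 CPM in labelled VEGFR3iLECko libraries and rose by 1.37 ± 0.27 (adjusted p = 0.00190), as did Gbp9 by 1.26 ± 0.14 (adjusted p = 6.82e-05). Gbp6 (chromosome 5, 105270702 to 105295871) went the other way, with 52.1, 56.3 and 59.7 CPM in Sham, 38.5, 23.7 and 34.5 CPM in injured VEGFR3fl/fl and 31.1, 31.1 and 27.5 CPM in labelled VEGFR3iLECko libraries. Every injured library was below every Sham library, and the log2 change was -0.80 ± 0.16 (adjusted p = 0.00186). Gbp6, unlike Ifit3, was called lower under every alternative setting of this comparison and without any single library. The genes of this cluster resemble each other in sequence, and the treatment of shared reads is not given in the sources used here.

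The immunity-related GTPases divided by gene. Tgtp1 had 7.81, 8.08 and 9.52 CPM in Sham, 37.9, 53.1 and 50.7 CPM in injured VEGFR3fl/fl and 28.5, 49.8 and 37.2 CPM in labelled VEGFR3iLECko libraries. Iigp1 had 16.8, 18.5 and 15.4 CPM in Sham, 66.9, 48.5 and 72.7 CPM in injured VEGFR3fl/fl and 41.9, 74.1 and 40.5 CPM in labelled VEGFR3iLECko libraries. In both, which are effector GTPases loaded onto pathogen vacuoles, the injured groups were above Sham and overlapped each other. Ifi47 had 10.8, 13.7 and 13.2 CPM in Sham, 45.1, 41.6 and 47.1 CPM in injured VEGFR3fl/fl and 26.7, 33.5 and 28.7 CPM in labelled VEGFR3iLECko libraries, without overlap among the 3 groups. The log2 rises after injury of VEGFR3fl/fl mice were 2.48 ± 0.22 for Tgtp1 (adjusted p = 1.36e-05), 1.89 ± 0.25 for Iigp1 (adjusted p = 1.61e-04) and 1.83 ± 0.12 for Ifi47 (adjusted p = 2.28e-06). The regulatory GTPases, which keep the effectors off host membranes, were changed less. Irgm1 had 57.1, 77.0 and 63.5 CPM in Sham, 92.5, 104 and 106 CPM in injured VEGFR3fl/fl and 74.7, 86.6 and 79.1 CPM in labelled VEGFR3iLECko libraries and rose by 0.62 ± 0.11 (adjusted p = 0.00137), just past the minimum fold. That call was lost without Sham replicate 1 (0.52) and without injured VEGFR3fl/fl replicate 3 (0.58). Igtp had 26.0, 28.8 and 26.3 CPM in Sham, 36.7, 28.2 and 29.2 CPM in injured VEGFR3fl/fl and 24.0, 22.5 and 19.0 CPM in labelled VEGFR3iLECko libraries, and Irgm2 had 30.7, 29.0 and 26.0, 29.9, 30.7 and 36.9, and 22.2, 33.1 and 24.6 CPM in the same order of groups. Neither passed the test, with log2 changes of 0.21 ± 0.12 and 0.19 ± 0.15 (adjusted p = 0.165 and 0.315).

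**Figure D4:**
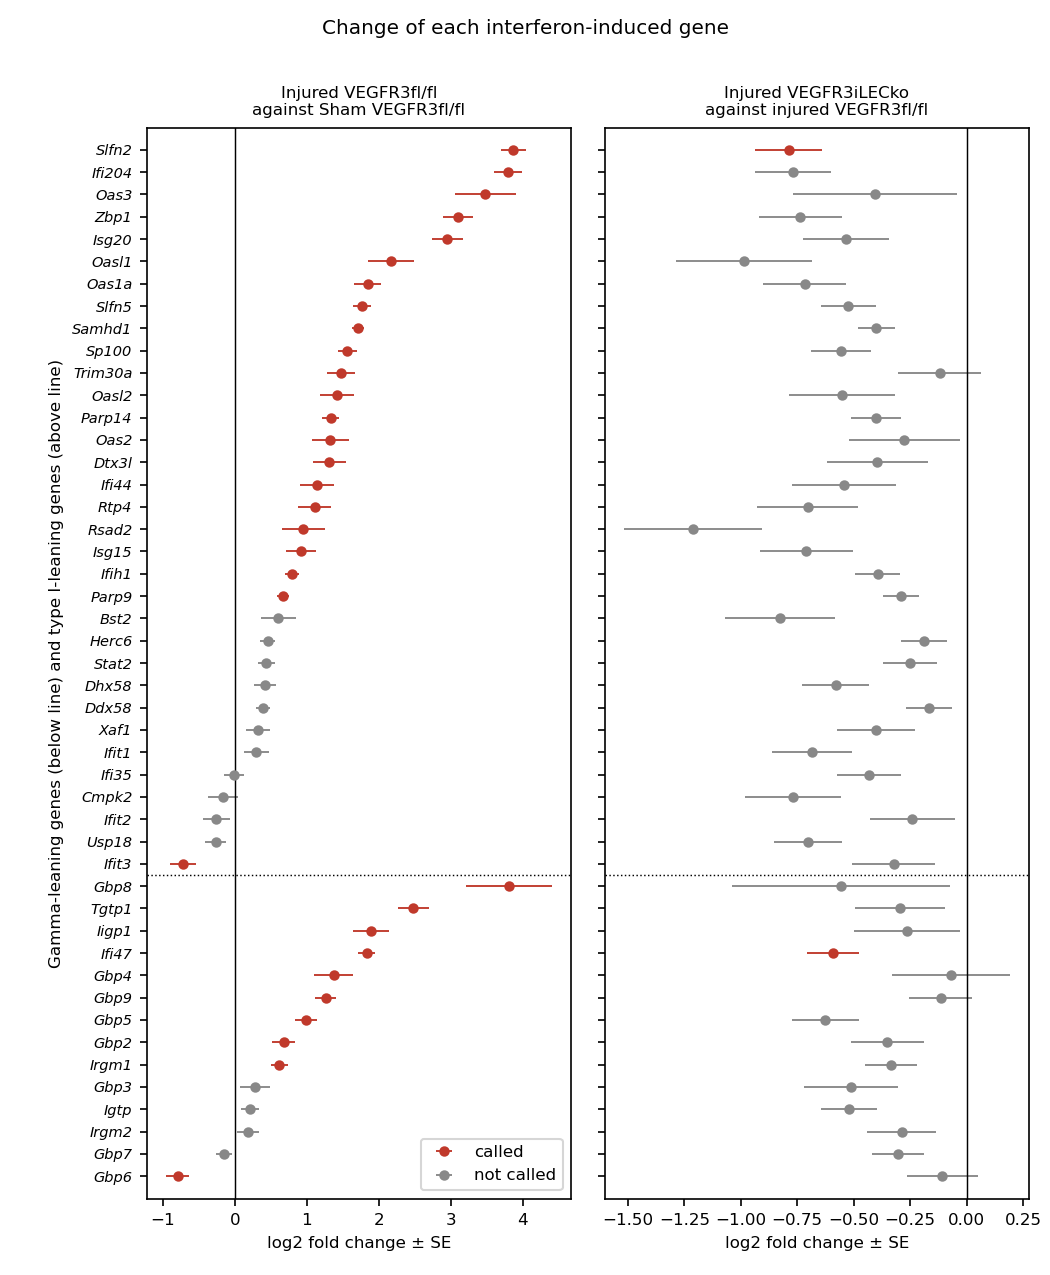
Log2 fold change with its SE for each of the 47 genes, injured VEGFR3fl/fl against Sham VEGFR3fl/fl (left) and labelled injured VEGFR3iLECko against injured VEGFR3fl/fl (right), from edgeR's fit of all 9 libraries, with called genes in red and type I-leaning genes above the dotted line. On the left 30 genes are called higher and 2 lower, and on the right all 47 lie below 0 with Slfn2 and Ifi47 called.

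Between the injured groups, every one of the 47 genes had a negative log2 fold change in the libraries labelled VEGFR3iLECko, from -1.21 for Rsad2 to -0.07 for Gbp4, where 51.5% of tested genes were lower. The median was -0.43, or 0.741-fold, and over all tested genes it was -0.01. Only 2 genes were called lower, Slfn2 and Ifi47 (4.26%, where 0.466% of tested genes were), and 0 were called higher, where 0.573% were. Unadjusted p was under 0.05 for 30 lower genes, where 12.5% of tested genes had such a p and were lower, and for 0 higher genes. DESeq2's Wald test called 14 genes lower, where it called 1.88% of tested genes, and 0 higher, where it called 2.29%. In 29 of the 47 genes every library labelled VEGFR3iLECko was below every injured VEGFR3fl/fl library, against 14.3% of tested genes. The 47 genes are measured in the same 6 libraries, so that they do not count as separate observations of the genotype.

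The summed level of the 47 genes was 1263 to 1589 CPM in Sham, 2050 to 2597 CPM in injured VEGFR3fl/fl and 1601 to 1799 CPM in labelled VEGFR3iLECko libraries. Slfn2 was lower by -0.79 ± 0.15 on the log2 scale (adjusted p = 0.0417) and Ifi47 by -0.59 ± 0.11 (adjusted p = 0.0453). Neither gene was called when the fit used only the 6 injured libraries (adjusted p = 0.112 for each), and Slfn2 was called in 1 and Ifi47 in 1 of the 9 fits that left out a library, in each case the fit without injured VEGFR3fl/fl replicate 2. The 3 genes with a larger change than Slfn2 were not called: Rsad2 changed by -1.21 ± 0.30 (adjusted p = 0.0720), Oasl1 by -0.99 ± 0.30 (0.105) and Bst2 by -0.83 ± 0.24 (0.0991). Ifi204 at -0.77 ± 0.17 (0.0586) and Cmpk2 at -0.77 ± 0.21 (0.0854) came next after Slfn2 and were not called either. Samhd1, at -0.40 ± 0.08 (adjusted p = 0.0512), and Usp18, at -0.70 ± 0.15 (0.0579), were also near the threshold on adjusted p. The change of Samhd1 was under the minimum fold. The values least apart were those of Gbp4 (-0.07 ± 0.26), Gbp6 (-0.11 ± 0.16), Gbp9 (-0.11 ± 0.14) and Trim30a (-0.12 ± 0.18), with adjusted p from 0.636 to 0.894. Each of these 4 was above 0 when a certain library was left out: Gbp4 at 0.20 and Trim30a at 0.029 without labelled VEGFR3iLECko replicate 1, Gbp6 at 0.043 without injured VEGFR3fl/fl replicate 1, and Gbp9 at 0.022 and Trim30a at 0.048 without injured VEGFR3fl/fl replicate 3. Gbp8 and Oas2 were also above 0 without that last library, at 0.21 and 0.016, so that 43 of the 47 genes were then lower.

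The 12 macrophage markers were also lower between the same groups, with 7 of 12 called lower, where 0.466% of tested genes were. These calls were lost when the fit used only the 6 injured libraries, where edgeR called 0 of all 15010 genes. The summed level of the 12 markers was 8198 to 10175 CPM in the libraries labelled VEGFR3iLECko against 12802 to 21255 CPM in the injured VEGFR3fl/fl libraries. The summed level of the 9 T cell markers was 25.3 to 44.0 CPM against 41.3 to 60.2 CPM, with 0 of 9 called by edgeR and 3 of 9 lower at an unadjusted p under 0.05. The 3 tested NK cell markers were lower, with 0 called. Other lists went the other way: all 5 tested neutrophil markers were higher, and the summed level of that list was 189 to 862 CPM against 86.4 to 221 CPM. All 6 iris pigment cell markers and 5 of 6 iris muscle markers were higher too, and edgeR called 0 of each list. The part of these cells in the lower interferon-induced genes was not tested. In replicate 3 of the injured VEGFR3fl/fl group the Y-linked Ddx3y, Eif2s3y and Kdm5d were at 0 counts. That replicate was above every library labelled VEGFR3iLECko for 45 of the 47 genes (95.7%), all but Gbp4 and Iigp1, against 29.6% of tested genes. Its level over the mean of those libraries had a median of 1.47 over the 47 genes. This single library has no replicate of its own. In the injured groups Y-linked expression parted from the genotype label only in that library, so sex and genotype cannot be told apart here. A fit with Y-linked expression as a covariate gave negative changes for all 47 genes. Of these edgeR called 0, as it called 2 of all 15010 genes in that fit, and 31 had an unadjusted p under 0.05, where 8.87% of tested genes had one in either direction. Without replicate 1 of the injured VEGFR3fl/fl group 46 of the 47 genes were lower, and without replicate 2 all 47 were.

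Compared with Sham, many of the genes were higher in the libraries labelled VEGFR3iLECko too. Of the 47 genes 21 were called higher (44.7%), where 19.7% of tested genes were, and 4 were called lower (8.51%), where 15.0% were, with a median log2 fold change of 0.40 and of -0.01 over all tested genes. This comparison shares the Sham libraries with that of the injured VEGFR3fl/fl group. The largest rises were in Gbp8 (3.26 ± 0.59), Slfn2 (3.08 ± 0.17), Oas3 (3.07 ± 0.43), Ifi204 (3.02 ± 0.19) and Isg20 (2.42 ± 0.21), with adjusted p from 1.10e-06 to 0.00144. The genes called lower were Ifit3 at -1.05 ± 0.19 (adjusted p = 0.00126), Usp18 at -0.97 ± 0.15 (6.02e-04), Cmpk2 at -0.94 ± 0.21 (0.00471) and Gbp6 at -0.91 ± 0.16 (0.00108). Usp18 and Cmpk2 thus stood below Sham without overlap in the libraries labelled VEGFR3iLECko, whereas in the injured VEGFR3fl/fl libraries they overlapped with Sham. Ifit2 was at -0.50 ± 0.19 (adjusted p = 0.0480), under the minimum fold. Isg15 and Rsad2 were at 0.21 ± 0.21 and -0.26 ± 0.31 (adjusted p = 0.427 and 0.501).

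Type I-leaning and gamma-leaning genes overlapped widely in their changes. After injury of VEGFR3fl/fl mice 21 of 33 type I-leaning genes were called higher and 1 lower (Ifit3). Their median log2 fold change was 1.11. Of 14 gamma-leaning genes 9 were called higher and 1 lower (Gbp6), with a median of 0.83. Of all tested genes 22.1% were called higher and 17.5% lower. Between the injured groups the medians were -0.53 and -0.32, with 1 gene called lower in each class, where 0.466% of tested genes were. Against Sham the libraries labelled VEGFR3iLECko had medians of 0.41 and 0.35. The difference between the class medians after injury of VEGFR3fl/fl mice, 0.28, was 0.032 without injured VEGFR3fl/fl replicate 3 and 0.47 without Sham replicate 2. The difference of -0.22 between the injured groups was -0.028 without labelled VEGFR3iLECko replicate 2, and for labelled VEGFR3iLECko against Sham that of 0.06 was -0.038 with core genes only. The spread within each class, from -0.72 to 3.87 for type I-leaning and from -0.80 to 3.81 for gamma-leaning genes, was several times larger than the difference between them. No test was made between the classes, since their genes share libraries and were assigned by hand.

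**Figure D5:**
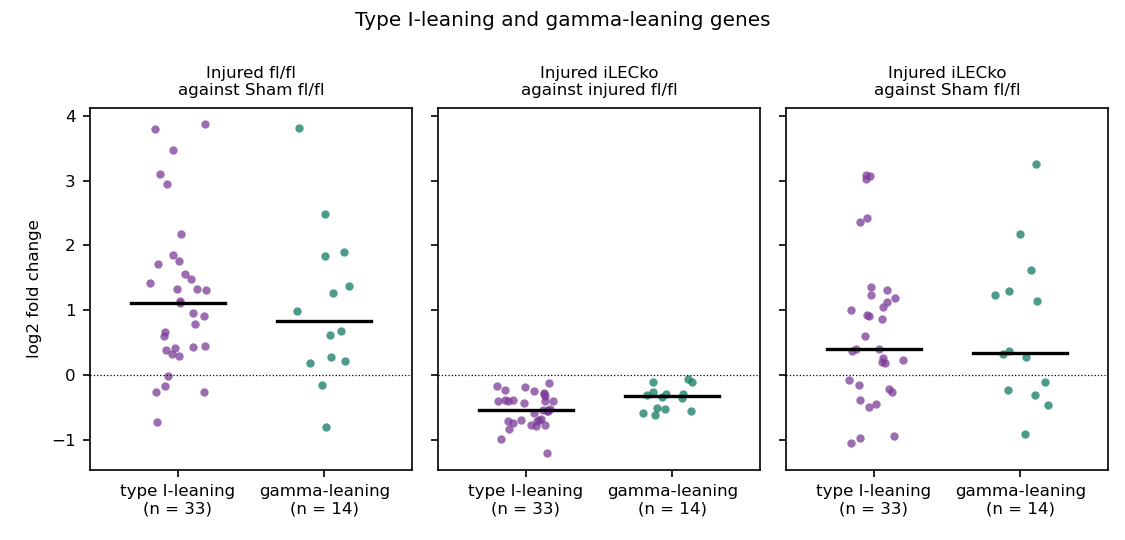
Log2 fold change of each type I-leaning (purple, n = 33) and gamma-leaning (green, n = 14) gene in the 3 comparisons, with the median of each class as a black line and points spread sideways for legibility. The medians are 1.11 and 0.83 after injury of VEGFR3fl/fl mice, -0.53 and -0.32 between the injured groups, and 0.41 and 0.35 for labelled VEGFR3iLECko against Sham, and the classes overlap throughout.

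Per library, the median deviation from the Sham mean of type I-leaning genes on the log2(CPM + 0.5) scale was 0.87, 0.86 and 1.42 in the injured VEGFR3fl/fl replicates and 0.35, 0.45 and 0.49 in those labelled VEGFR3iLECko. For gamma-leaning genes it was 1.01, 0.82 and 0.77 and then 0.30, 0.46 and 0.38. Replicate 3 was the highest injured VEGFR3fl/fl library for 25 of the 33 type I-leaning genes and for 8 of the 14 gamma-leaning genes. With only the 18 and 11 measured genes of narrower core lists, also drawn up by hand, the medians after injury were 0.85 and 0.62. These lists left out genes with large rises, among them Slfn2, Ifi204, Zbp1 and Gbp8, and genes with small changes, among them Ifi35 and Stat2. The medians of these 18 type I-leaning genes were 0.64, 0.66 and 0.74 in the injured VEGFR3fl/fl libraries, so that replicate 3 was less apart from the others.

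Of 10 interferon ligands looked up by symbol only Ifng and Ifnk had a row, and both were near 0. Ifng, the gamma ligand, had 0, 0 and 0 counts in Sham, 0, 1 and 1 in injured VEGFR3fl/fl and 0, 1 and 1 in labelled VEGFR3iLECko libraries. It did not pass the filter on low counts, so no fold change is given. Ifnb1 was not analysed here. Of 6 receptor chains 4 were called higher in the injured VEGFR3fl/fl libraries, Ifnar1 (0.65 ± 0.08), Ifnar2 (0.63 ± 0.08), Ifngr1 (1.71 ± 0.09) and Ifngr2 (1.21 ± 0.07), with adjusted p from 7.13e-07 to 1.69e-04. The gamma receptor chains thus had the larger changes of the 4. Of all tested genes 22.1% were called higher in this comparison.

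Among the 8 kinases and transcription factors 5 were called higher, where 22.1% of tested genes were. Irf1, a factor induced by interferon gamma, rose by 1.20 ± 0.08 (adjusted p = 3.36e-06), Irf7, the amplifier of type I interferon, by 1.42 ± 0.25 (0.00107), Irf8 of the myeloid lineage by 3.42 ± 0.10 (4.09e-08), Jak1 by 0.70 ± 0.07 and Tyk2 by 0.75 ± 0.07. Irf9 changed by 0.12 ± 0.11 (adjusted p = 0.352). Among 4 inhibitors 3 were called higher, Socs1 by 2.05 ± 0.30 (adjusted p = 2.91e-04), Socs3 by 3.01 ± 0.19 (1.80e-06) and the phosphatase Ptpn2 by 0.77 ± 0.12 (5.60e-04). Of 8 upstream sensing genes 4 were called higher, Cgas (2.40 ± 0.27), Sting1 (1.96 ± 0.11), Tlr7 (2.11 ± 0.11) and Tlr9 (2.76 ± 0.42). Of 8 tested interferon gamma targets outside the set 7 were called higher, such as the chemokine Cxcl9 (3.95 ± 0.78), the class II transactivator Ciita (2.81 ± 0.26) and the immunoproteasome subunit Psmb8 (2.41 ± 0.17).

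Between the injured groups 2 of these pathway genes were called lower, where 0.466% of tested genes were. They were Irf8 at -0.76 ± 0.09 (adjusted p = 0.0214) and Tlr7 at -0.70 ± 0.10 (adjusted p = 0.0263). Both calls were lost when the fit used only the 6 injured libraries, where edgeR called 0 of all tested genes. Irf7, whose product drives many genes of the set, had 326, 525 and 310 counts in Sham, 877, 723 and 1375 in injured VEGFR3fl/fl and 521, 541 and 508 in labelled VEGFR3iLECko libraries, and its change between the injured groups was -0.95 ± 0.25 (adjusted p = 0.0777). The chemokine Cxcl10, a target of both kinds of interferon, had 27, 31 and 19 counts in Sham, 222, 630 and 66 in injured VEGFR3fl/fl and 97, 30 and 32 in labelled VEGFR3iLECko libraries, so that replicate 2 of the injured VEGFR3fl/fl group was far above the rest, as it was for Rsad2 and, less so, for Oasl1. The receptor chains Ifnar1 and Ifngr1 changed by -0.01 ± 0.08 and -0.25 ± 0.09 between the injured groups (adjusted p = 0.954 and 0.140).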

How the data were processed

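Iris RNA was sequenced as single-end reads on a BGISEQ-500. The authors aligned the reads with HISAT2 2.0.4 and Bowtie2 2.2.5 to mm10, per the submitters' processing notes, and deposited estimated counts for each gene, with no normalization. Of a library's values 9.83% to 10.3% had a fractional part. The program that estimated the counts and its annotation are not given in the sources used here. A combined table of the same values with group averages was not used.

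Groups were taken from titles and treatments. The genotype tags of replicates 2 and 3 labelled VEGFR3iLECko name other VEGFR numbers and were not followed. Per the study's methods each library pooled 3 other mice, so that p-values measure the spread between pools. Replicates differed by more than counting noise (chi-square per degree of freedom 5.13 to 76.2).

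Counts were rounded, filtered by filterByExpr and normalized by TMM (factors 0.90 to 1.09) in edgeR 4.0.16 on R 4.3.3, and all 9 libraries were fitted with group as the only term. The study's filter on TPM was not applied. A call needed an adjusted p (Benjamini-Hochberg over 15010 genes) under 0.05 and a change over 1.5-fold. SE is the log2 fold change divided by the square root of F. TPM used the longest GENCODE M21 transcript of a gene, given for 96.7% of genes. Promoters and positions are of RefSeq on GRCm38.p6. Alternatives were another normalization, no filter, DESeq2 1.42.0, 6 libraries, no minimum fold, a replicate block, a Y-linked covariate, core genes only and leaving out each library. The fit was tested on simulated data.

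The 49 genes, their classes and the pathway and marker lists were chosen with earlier results of these data known. Values in every library are given for a fixed set of 28 genes, for the 5 largest changes in each direction and for calls of at most 10 in a direction. Role groups were drawn up later. Protein sequences were not compared here. A result for 1 pathway gene is not reported here.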

Additional observations from a re-analysis of the deposited data

How the results depend on the processing

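At 16617199 to 18306363 counts per library, Gbp8 and Oas3 rested on 5 to 26 counts in the Sham libraries, and both were called after injury of VEGFR3fl/fl mice under all 17 alternatives. After injury of VEGFR3fl/fl mice, 30 genes were called higher and 28 to 31 without a single library, and the median log2 fold change of 0.99 was 0.81 by library size only and 0.94 to 1.22 without a library, the highest without Sham replicate 2. The 2 genes called lower were 1 to 2 without a library, and 1 (without Ifit3) when Sham replicate 2 or injured VEGFR3fl/fl replicate 2 was left out. Between the injured groups, the 2 genes called lower became 14 by DESeq2, 0 by library size only, 0 with only the 6 libraries compared, 0 with a Y-linked covariate, and 0 to 9 without a library. It was 9 without injured VEGFR3fl/fl replicate 2, 1 without Sham replicate 2 (Isg15) or injured VEGFR3fl/fl replicate 1 (Oasl1), and 0 without each of the other 6. Of all tested genes, 70 were called lower, and under the same alternatives 282, 41, 0, 2 and 0 to 148, in that order. The median of -0.43 lay between -0.52 and -0.34 without a library, and under the alternatives that left out no single library 25 to 31 of the 47 genes had an unadjusted p under 0.05, and all of these were lower. For labelled VEGFR3iLECko against Sham, 21 genes were called higher and 20 to 23 without a library, 4 were called lower and 7 with no minimum fold, and the median of 0.40 lay between 0.34 and 0.51 without a library.

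The replicate numbers did not pair the libraries: the correlation of same-numbered deviations was -0.353 to 0.182, with 1 of 9 pairs over 0.1. With a replicate block 0 of the 47 genes were called lower between the injured groups, and 27 were lower at an unadjusted p under 0.05. Of all 15010 tested genes 13 were called lower in that fit, and 3254 had such a p in either direction. After injury 30 of the 47 genes were called higher and 2 lower as before.

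The difference of the class medians, type I minus gamma, was 0.28 after injury of VEGFR3fl/fl mice and 0.032 to 0.47 without a library. It was 0.032 without injured VEGFR3fl/fl replicate 3, 0.42 without replicate 2 and 0.47 without Sham replicate 2. Between the injured groups it was -0.22, and -0.26 to -0.028 without a library, the last without labelled VEGFR3iLECko replicate 2. For labelled VEGFR3iLECko against Sham it was 0.06, with 0.037 to 0.20 without a library, the last without Sham replicate 2, and -0.038 for core genes only. Of single genes, none reversed after injury of VEGFR3fl/fl mice or between the injured groups under alternatives that kept all libraries. For labelled VEGFR3iLECko against Sham, Rsad2 (0.32), Rtp4 (-0.11) and Stat2 (-0.0448) reversed with the Y-linked covariate. Without a library, Ifi35 lay between -0.13 and 0.12 after injury of VEGFR3fl/fl mice. Between the injured groups Gbp4 lay between -0.29 and 0.20, Gbp6 between -0.29 and 0.043, Gbp8 between -0.85 and 0.21, Gbp9 between -0.19 and 0.022, Oas2 between -0.43 and 0.016 and Trim30a between -0.28 and 0.048. For labelled VEGFR3iLECko against Sham, Bst2 lay between -0.38 and 0.11, Gbp3 between -0.38 and 0.018, Irgm2 between -0.29 and 0.014 and Xaf1 between -0.18 and 0.13. The cause of these changes was not tested.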
